A study of Mus musculus with 6 samples.

Results

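Cholesterol synthesis and its regulator SREBP2 were examined in soft tissue at the mouse Achilles tendon. This was done through 8 genes, found by name in the deposited count table of 21878 genes. They were Srebf2, which codes for SREBP2, and the 7 enzyme genes Hmgcs1, Idi1, Fdps, Fdft1, Sqle, Lss and Cyp51. All 8 were in the table and all 8 were among the 14561 genes with enough counts to be tested. The study compared soft tissue at the Achilles tendon of mice in 2 groups, sham operation and amputation of the Achilles tendon, with 3 RNA libraries in each. They are named here sham 1 to 3 and cut 1 to 3, by the label's own number. The series title places it in work on KLF2, PPARγ and mitochondrial dysfunction in trauma-induced heterotopic ossification, which is bone formed outside the skeleton after injury. The labels used here give no strain, genotype, age, sex or time after surgery, and do not tie libraries to individual animals. The spread behind each p-value is thus that among these libraries, and part or all of it may be technical.

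Cells make cholesterol from acetyl-CoA by a long chain of enzymes that passes through mevalonate, farnesyl diphosphate, squalene and lanosterol. SREBP2 is a transcription factor held in the endoplasmic reticulum membrane, and when sterols are scarce it is carried to the Golgi, cut by proteases, and its released part enters the nucleus to switch on the genes of this chain and of cholesterol uptake. Farnesyl diphosphate also feeds other products, among them ubiquinone, dolichol and the lipid anchors of small GTPases. In connective tissue the pathway supplies membrane to dividing and secreting cells.

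Promoter sequences are shown for 3 members because they differed in response: Srebf2 and Cyp51 rose in cut tendon, and Hmgcs1 was not called. They run from 250 bases before to 50 bases after the annotated start (RefSeq, GRCm38.p6), 5′ to 3′ on the gene's strand: chr15:82147019-82147318 on the plus strand for Srebf2, chr5:4104648-4104947 on the minus strand for Cyp51, and chr13:119690101-119690400 on the plus strand for Hmgcs1. Capitals mark matches, on either strand, to CCAAT (bound by NF-Y), GGGCGG (bound by Sp1) and, in Hmgcs1, TCACNCCAC, a form of the sterol regulatory element that SREBP proteins bind.
Srebf2: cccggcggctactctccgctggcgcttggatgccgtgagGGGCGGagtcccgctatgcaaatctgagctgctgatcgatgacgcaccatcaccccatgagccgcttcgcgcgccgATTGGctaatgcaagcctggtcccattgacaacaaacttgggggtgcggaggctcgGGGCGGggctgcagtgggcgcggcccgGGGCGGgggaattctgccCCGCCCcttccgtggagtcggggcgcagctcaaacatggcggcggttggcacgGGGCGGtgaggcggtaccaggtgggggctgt
Cyp51: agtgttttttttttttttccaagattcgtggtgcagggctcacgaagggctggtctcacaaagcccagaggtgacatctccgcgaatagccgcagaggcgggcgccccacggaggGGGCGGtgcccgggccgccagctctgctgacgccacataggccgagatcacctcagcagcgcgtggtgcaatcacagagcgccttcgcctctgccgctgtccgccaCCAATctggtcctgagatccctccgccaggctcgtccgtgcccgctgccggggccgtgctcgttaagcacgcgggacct
Hmgcs1: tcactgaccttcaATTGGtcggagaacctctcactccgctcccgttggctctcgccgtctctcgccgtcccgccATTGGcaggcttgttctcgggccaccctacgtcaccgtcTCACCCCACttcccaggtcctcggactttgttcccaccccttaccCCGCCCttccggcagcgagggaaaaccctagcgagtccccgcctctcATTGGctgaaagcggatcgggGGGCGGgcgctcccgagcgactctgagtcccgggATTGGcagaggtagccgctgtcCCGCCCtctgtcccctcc
RefSeq promoters were in the table used for 5 of the 8 members, these 3 with Lss and Idi1. TCACNCCAC was found in 1 of them, in Hmgcs1 at -137 to -129 from the start as TCACCCCAC, and in 1.24% of all 32851 promoters of that length. The E-box TCACGTGA, which SREBP proteins can also bind, was in none of the 5 and in 0.974% of all. CCAAT was in all 5 and in 37.4% of all promoters, and GGGCGG in all 5 and in 35.7%. No base lay in 2 motifs. Hmgcs1 held 4 CCAAT and 3 GGGCGG matches, Srebf2 held 1 and 5, and Cyp51 held 1 of each. Only exact matches to these letters were counted, so a promoter without a match may still hold a variant site. The Srebf2 sequence, for example, holds tcaccccat, which differs from TCACNCCAC only in its last base.

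The libraries held 23916839 to 31346730 counts each, and 1 count stood for 0.0319 to 0.0418 CPM (counts scaled to a common library size). The tendon genes Tnmd and Scx were present in both groups, at means of 64.1 and 11.8 CPM in sham and 685 and 40.4 CPM in cut tendon. The 8 genes of a tendon list took 0.199% to 0.488% of counts in sham and 0.609% to 1.48% in the cut libraries. Muscle RNA was present in large amount in sham and in cut 3: the 20 genes of a skeletal muscle list took 18.4% to 20.3% of counts in sham, 1.53% in cut 1, 0.471% in cut 2 and 14.8% in cut 3. Cut 3 therefore stands apart from the other two cut libraries, and results that rest on it are given with and without it. In bulk tissue, fewer cells of a type and less RNA per cell cannot be told apart.

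**Figure D1:**
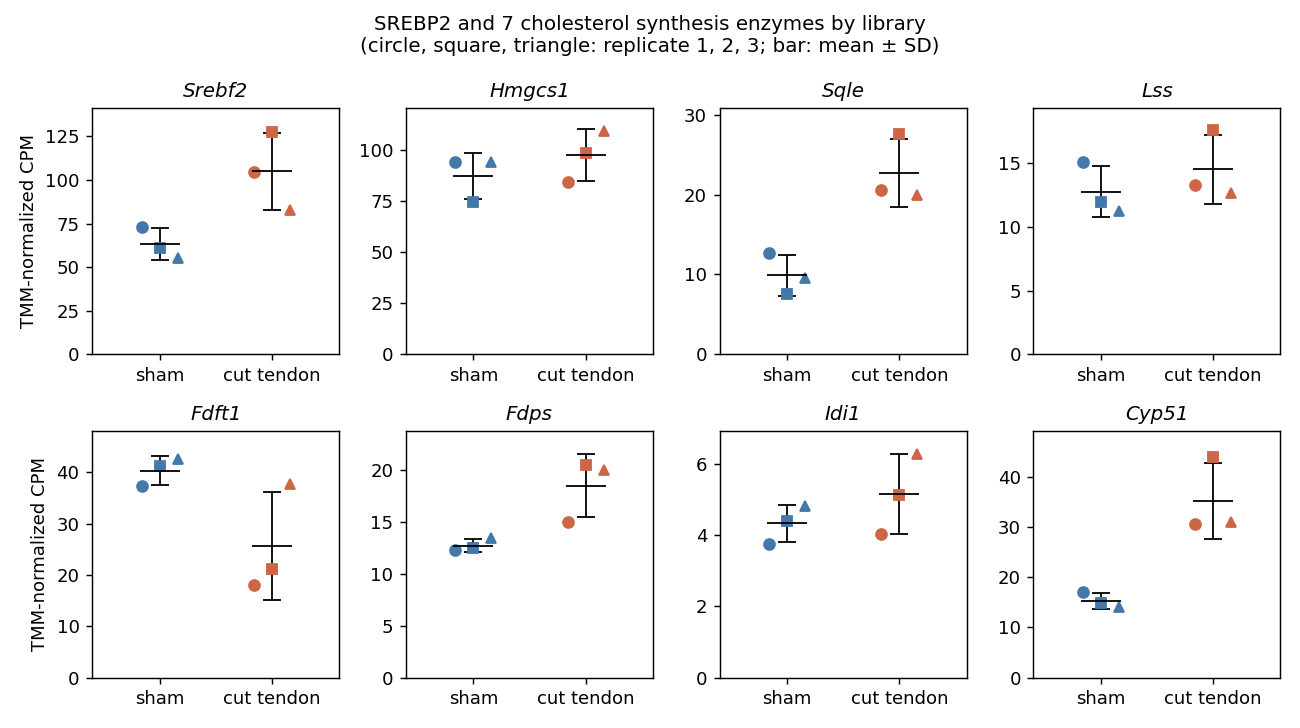
TMM-normalized CPM (vertical axes, from 0) of the 8 members in the sham and cut-tendon libraries, with each library as a point and the mean ± SD as bars (n = 3 per group). Srebf2, Sqle, Fdps and Cyp51 show no overlap between groups, whereas Hmgcs1, Lss, Idi1 and Fdft1 do, the last because cut 3 at 37.7 CPM lies within the sham range.

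The regulator rose. Srebf2 (NCBI gene 20788, chromosome 15, 82147269 to 82205379, GRCm38.p6 as for all positions here) stood at 73.3, 61.1 and 55.3 CPM in sham 1 to 3 against 104, 127 and 82.9 CPM in the cut libraries, in the same order. Every cut library was above every sham library, and cut 3 was the lowest of the cut group. The mean went from 63.2 ± 9.17 to 105 ± 22.3 CPM (SD, n = 3), a log2 fold change of 0.73 ± 0.20 (SE; 1.66-fold, adjusted p = 0.034 by edgeR's quasi-likelihood F test, Benjamini-Hochberg). The call was near the threshold: leaving out sham 1 (log2 0.85), sham 2 (0.68) or sham 3 (0.61) ended it, as did leaving out cut 1 (0.74) or cut 2 (0.57), and it was kept without cut 3 (0.88). When the muscle list's log2 CPM entered the model, referred to below as the muscle covariate, the value was 0.33 and not called. This covariate largely follows the groups. The list took 18.4% to 20.3% of counts in sham, but 1.53% and 0.471% in cut 1 and 2. Only cut 3 (14.8%) was near sham, so values with the covariate rest largely on that library. They cannot tell muscle content apart from the cut, here and below.

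Hmgcs1 (chromosome 13, 119690351 to 119708260), the synthase that joins acetyl-CoA and acetoacetyl-CoA ahead of mevalonate, was not called. It stood at 93.8, 74.3 and 93.8 CPM in sham and 84.2, 98.4 and 109 CPM in cut tendon, with the groups overlapping, and its log2 fold change was 0.16 ± 0.16 (adjusted p = 0.459). Idi1 (chromosome 13, 8885606 to 8892396), which interconverts the 2 five-carbon isoprenoid units, had low levels of 3.76, 4.39 and 4.81 CPM in sham and 4.03, 5.13 and 6.27 CPM in cut tendon. The groups overlapped and the log2 fold change was 0.25 ± 0.22 (adjusted p = 0.391), from 92 to 187 counts per library. Neither gene was called under any of the 17 alternatives, with log2 values of 0.03 to 0.29 for Hmgcs1 and 0.08 to 0.48 for Idi1.

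Fdps (chromosome 3, 89093588 to 89101967), which builds farnesyl diphosphate and so stands at the fork between sterols and other isoprenoids, rose modestly. It stood at 12.3, 12.5 and 13.4 CPM in sham and at 15.0, 20.5 and 20.03 CPM in cut tendon. The sham libraries lay close together and all cut libraries lay above them, with cut 1 the nearest. The log2 fold change was 0.54 ± 0.16 (1.45-fold, adjusted p = 0.0408). The call was lost without sham 1 (0.51), sham 2 (0.51), sham 3 (0.55) or cut 2 (0.46), when low genes were not filtered out (0.52), and with the muscle covariate (0.57). Of the 8 other annotated genes that matched an Fdps transcript at 90% identity or more over at least 100 bases, 7 are processed pseudogenes. The other, Gm43738, is protein coding, matched at 100% over 929 bases, and overlaps Fdps exons on the same strand by up to 197 bases. How the authors counted reads that fit several places is not stated in the sources at hand. The level of Fdps is uncertain to that extent. Idi1 had 4 such copies and Fdft1 1.

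Of the 3 enzymes from farnesyl diphosphate to lanosterol, Sqle alone was called. Fdft1 (chromosome 14, 63145150 to 63181687) codes for squalene synthase, the step that commits farnesyl diphosphate to sterols. It stood at 37.3, 41.3 and 42.5 CPM in sham, at 18.0 and 21.2 CPM in cut 1 and 2, and at 37.7 CPM in cut 3, inside the sham range. Its log2 fold change of -0.66 ± 0.28 was not called (adjusted p = 0.113). Without cut 3 Fdft1 was called lower, at -1.04 (adjusted p = 0.000365), and with the muscle covariate it stood at -0.13 and was not called. Exons of Fdft1 overlap those of Ctsb, the lysosomal protease cathepsin B, on the other strand by up to 774 bases, and the strand setting of the counting is not given in the sources used here. Ctsb rose, from 402 ± 57.9 to 1028 ± 139 CPM, the direction opposite to the Fdft1 values of cut 1 and 2.

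Sqle (chromosome 15, 59315092 to 59331193) codes for squalene epoxidase, the next enzyme and a rate-limiting step of the later route. It stood at 12.6, 7.53 and 9.58 CPM in sham and at 20.6, 27.6 and 19.96 CPM in cut tendon. Every cut library, cut 3 included, was above every sham library. Sqle rose by log2 1.20 ± 0.23 (2.29-fold, adjusted p = 0.0133), and the call was lost without sham 2 (1.01) or sham 3 (1.14) and with the muscle covariate (0.92). Lss (chromosome 10, 76531565 to 76557139), the cyclase that folds oxidosqualene into lanosterol, stood at 15.1, 12.0 and 11.3 CPM in sham and 13.3, 17.6 and 12.7 CPM in cut tendon. Its groups overlapped and the log2 fold change of 0.18 ± 0.19 was not called (adjusted p = 0.463).

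Cyp51 (chromosome 5, 4080674 to 4104697), the cytochrome P450 that removes a methyl group from lanosterol, gave the firmest result. It stood at 17.1, 14.8 and 14.0 CPM in sham and at 30.6, 43.9 and 31.1 CPM in cut tendon. Cut 3 was level with cut 1. Cyp51 rose by log2 1.20 ± 0.18 (2.30-fold, adjusted p = 0.00703) and was called under all 17 alternatives, with log2 values of 0.91 to 1.29 and a largest adjusted p of 0.042. Its exons overlap those of Akap9 on the other strand by up to 166 bases, and Akap9 was at 184 ± 8.74 CPM in sham and 147 ± 14.6 CPM in cut tendon. Exons of Hmgcs1 (up to 458 bases), Idi1 (323) and Lss (150) also overlap those of other genes on the opposite strand.

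In all, 4 of the 8 members were called higher, beside 20.4% of all tested genes, and the same 4 were all that were called either way, beside 32.7%. None was called lower in edgeR's test, beside 12.3% of all genes, and no member with a negative value had an unadjusted p under 0.05 or was called by DESeq2 or limma-voom. The groups did not overlap for 4 of 8 members, beside 54.8% of all genes (28.7% higher and 26.1% lower in cut tendon), so that non-overlap was about as frequent among the members as elsewhere. The median log2 fold change of the members was 0.40, beside -0.02 over all tested genes. Without cut 3 the members counted 4 higher and 1 lower, when 28.5% and 29.7% of all genes were called higher and lower. The all-gene share fell with the members' count when other libraries were left out. It was 2 members beside 10.6% of all genes without sham 1, 1 beside 7.39% without sham 2, 1 beside 9.19% without sham 3, 3 beside 10.8% without cut 1 and 2 beside 12.6% without cut 2. With the muscle covariate 1 was higher and 0 lower, when 9.77% and 3.98% of all genes were. With the replicate number as a block 4 were higher and 0 lower, when 21.7% and 17.3% of all genes were.

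Per unit of gene length the members differed widely in level. In the authors' FPKM (counts scaled to gene length and library size), sham means were 23.7 ± 2.97 for Hmgcs1, 11.4 ± 1.97 for Srebf2, 8.70 ± 0.157 for Fdps, 5.998 ± 0.279 for Fdft1, 3.61 ± 0.991 for Sqle, 3.52 ± 0.465 for Cyp51, 1.86 ± 0.344 for Lss and 1.502 ± 0.144 for Idi1 (SD, n = 3). Sqle and Cyp51, and likewise Lss and Idi1, did not differ beyond the spread of the sham libraries. In cut tendon the FPKM means were 26.4 ± 1.69 for Hmgcs1, 19.0 ± 4.21 for Srebf2, 12.6 ± 1.21 for Fdps, 8.26 ± 1.39 for Sqle, 8.07 ± 1.51 for Cyp51, 3.77 ± 1.36 for Fdft1, 2.11 ± 0.36 for Lss and 1.78 ± 0.277 for Idi1. Hmgcs1, which was not called, had the highest level of the 8 in both groups.

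The order of members by FPKM changed between the groups. Fdft1 had a higher FPKM than Sqle and than Cyp51 in each sham library and a lower one in each cut library. This order depends on the gene lengths used. The FPKM imply 6712 bases for Fdft1, 2748 for Sqle and 4353 for Cyp51. In CPM, Fdft1 was below Sqle and Cyp51 in cut 1 and 2. In cut 3 it was above them, at 37.7 CPM against 19.96 for Sqle and 31.1 for Cyp51. The Sqle over Fdft1 FPKM ratio was 0.828, 0.446 and 0.551 across the sham libraries, against 2.79, 3.18 and 1.29 across the cut libraries. A ratio within a library does not depend on how libraries are scaled, and it shows unequal change, not which gene changed. The ratio of Cyp51 to Lss, 2 genes that follow each other in the route, was 1.79, 1.96 and 1.96 in sham and 3.63, 3.94 and 3.87 in cut tendon, with cut 3 beside the other two. That of Fdps to Fdft1 was 1.39 to 1.51 in sham tendon, against 3.84, 4.44 and 2.44 in the cut libraries. These ratios were chosen after the values were seen and carry no test.

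**Figure D2:**
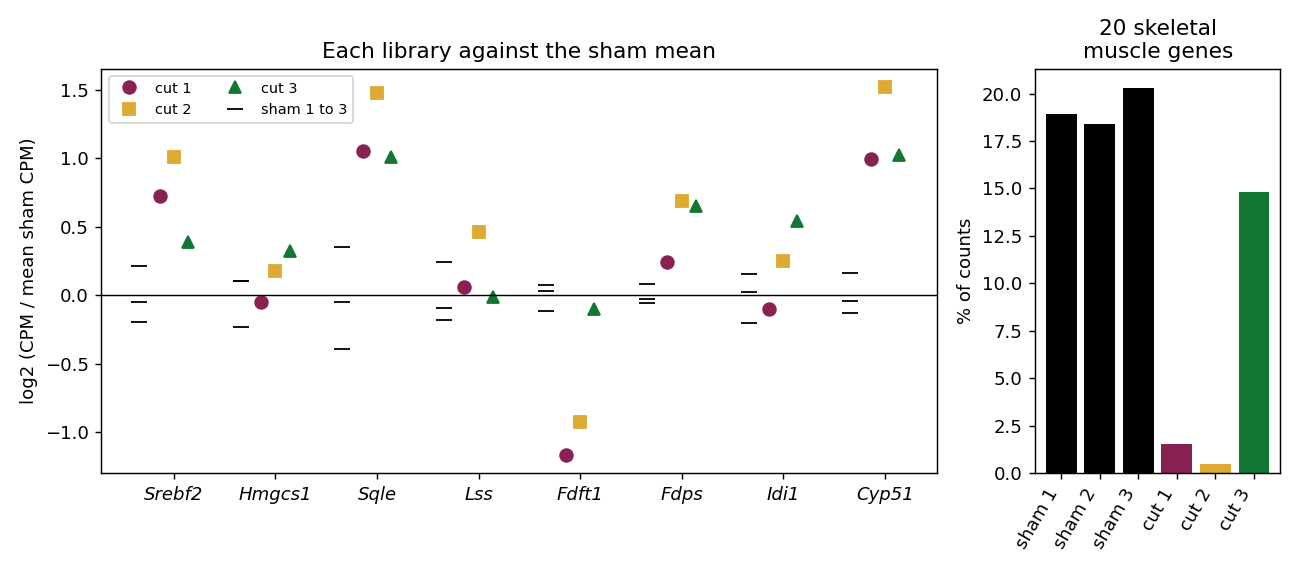
Left, log2 of each library's CPM over the sham mean for the 8 members, with cut 1 to 3 as coloured symbols and the sham libraries as black dashes. Right, percent of counts from 20 skeletal muscle genes per library. Cut 3, at 14.8% muscle counts, lies beside cut 1 for Sqle and Cyp51, nearer the sham mean for Srebf2 at 0.39, and at -0.10 for Fdft1.

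The members fell into different patterns across the cut libraries. Relative to the sham mean, Sqle was at log2 1.05, 1.48 and 1.01 in cut 1 to 3 and Cyp51 at 0.997, 1.52 and 1.02. Srebf2 was at 0.72, 1.01 and 0.39, and Fdft1 at -1.17, -0.93 and -0.10. Cut 2 was the highest library for Srebf2, Sqle, Lss, Fdps and Cyp51, and cut 3 for Hmgcs1 and Idi1. Srebf2, Fdft1, Sqle and Lss (0.06, 0.46 and -0.01) were nearest to the sham mean in cut 3, the cut library with the most muscle RNA. Fdps (0.24, 0.69 and 0.65), Idi1 (-0.10, 0.25 and 0.54), Hmgcs1 (-0.05, 0.17 and 0.32) and Cyp51 were nearest in cut 1 (1.53% muscle counts). For Sqle and Cyp51, cut 1 and cut 3 were nearly level. With the muscle genes left out of the library sizes, the 4 members called higher stayed so, beside 19.5% of all genes, with Srebf2 at 0.70, Sqle at 1.17, Fdps at 0.51 and Cyp51 at 1.17.

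**Figure D3:**
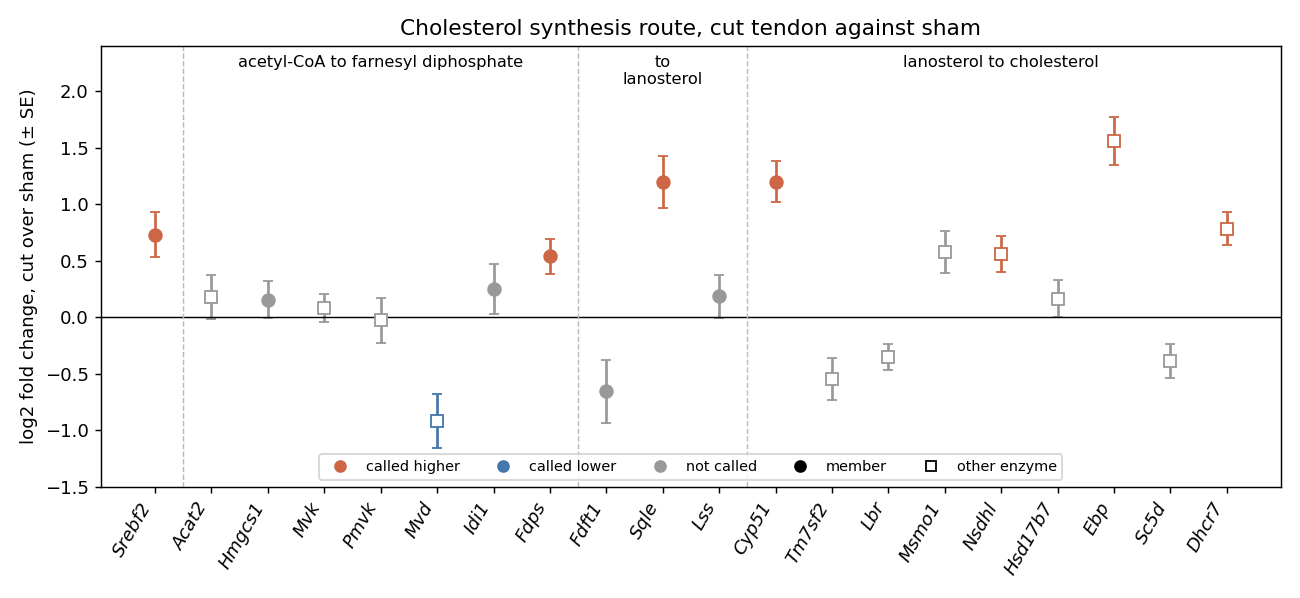
Log2 fold change of cut over sham (± SE, n = 3 per group) for Srebf2 and 19 enzymes in the order of the route, with members as filled circles and other enzymes as open squares. Colours mark genes called higher, called lower or not called. The called enzymes are spread over the route and lie between enzymes that were not called, with Ebp highest at 1.56 and Mvd lowest at -0.92.

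The rest of the route also held called and uncalled enzymes, but its median change was smaller than that of the members. Of 12 further enzymes of cholesterol synthesis reported here, 3 rose, 1 fell and 8 were not called. Over all tested genes, 20.4% were called higher and 12.3% lower. The median log2 fold change of the 12 was 0.12, against 0.25 for the 7 enzyme members and 0.40 for the 8 members with Srebf2. Ebp, a sterol isomerase late in the route, rose from 9.72, 10.98 and 10.3 to 28.2, 39.7 and 23.4 CPM (log2 1.56 ± 0.21, adjusted p = 0.0057) and was called under all 17 alternatives. Dhcr7, which makes cholesterol from 7-dehydrocholesterol, rose by log2 0.78 ± 0.14. Its call was lost without sham 2 (0.74) or sham 3 (0.71) and with the muscle covariate (0.68).

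Nsdhl, an enzyme of sterol demethylation after Cyp51, rose by log2 0.56 ± 0.16 (adjusted p = 0.0383) with all libraries. The call was lost with the replicate number as a block (0.57, adjusted p = 0.0524), with the muscle covariate, and in each left-out fit (0.44 to 0.63) except that without cut 3. Mvd, the decarboxylase that ends the mevalonate part, was the enzyme that fell, from 16.9, 14.6 and 11.2 CPM to 5.74, 7.53 and 9.33 CPM (log2 -0.92 ± 0.24, adjusted p = 0.031). Its call was lost with the block (-0.92, adjusted p = 0.0613), with the muscle covariate (-0.69) and without sham 1 (-0.78), sham 2 (-0.92), cut 1 (-0.75) or cut 2 (-0.92). Msmo1 (0.58 ± 0.18), Tm7sf2 (-0.54 ± 0.18), Lbr (-0.35 ± 0.11) and Sc5d (-0.39 ± 0.15) were not called (adjusted p = 0.0528 to 0.0931). Their groups did not overlap, which was also so for 54.8% of all tested genes. Sc5d was called lower with the block (-0.39, adjusted p = 0.0363). Without cut 3, Msmo1 was called higher (0.54) and Lbr (-0.41) and Sc5d (-0.50) lower. Msmo1 was called in 7 of the 17 alternatives, Lbr in 3, Sc5d in 2 and Tm7sf2 in 1. Acat2, Mvk, Pmvk and Hsd17b7 had log2 values between -0.03 and 0.18 and were not called under any alternative.

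Over these 19 enzymes, members included, 6 were higher, 1 lower and 12 not called, with a median of 0.18. Among all tested genes 20.4% were called higher and 12.3% lower, with a median of -0.02, and the counts by stretch stand beside the same shares. By stretch of the route, 1 of 7 was higher and 1 lower up to farnesyl diphosphate, 1 of 3 was higher from there to lanosterol, and 4 of 9 were higher from lanosterol to cholesterol.

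Of 8 genes that process or hold back SREBP proteins, 2 were higher and 6 not called (median 0.04), beside the 20.4% of all genes called higher. Mbtps1 codes for the site-1 protease that makes the first cut in SREBP2, and rose from 114, 109 and 92.1 to 190, 227 and 153 CPM (log2 0.86 ± 0.19, adjusted p = 0.0186). Mbtps2, the site-2 protease that makes the second cut, rose by log2 0.41 ± 0.12 (adjusted p = 0.0407), a call lost with the block (0.41, adjusted p = 0.0526). Mbtps1 was called only without cut 2 or cut 3 among the left-out fits (0.72 to 0.99), Mbtps2 only without cut 3 (0.33 to 0.45), and neither with the muscle covariate (0.49 and 0.36). The Mbtps2 call was also lost with no filter on low counts (0.38) and on both log2(FPKM) fits (0.35 and 0.40), and held in 7 of the 17 alternatives. Insig2, which retains SREBP in the endoplasmic reticulum, was at 49.2, 48.3 and 52.7 CPM in sham and 28.2, 27.0 and 47.4 CPM in cut tendon (log2 -0.55 ± 0.23, not called) and was called lower without cut 3 (-0.86), the same library pattern as Fdft1. The escort protein gene Scap (0.36 ± 0.16), Insig1 (0.21 ± 0.11) and the paralogue Srebf1 (-0.23 ± 0.17), whose product mainly drives fatty acid synthesis, were not called.

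Among 10 genes of cholesterol uptake and intracellular transport, 6 were higher and 4 not called (median 0.65), beside 20.4% of all genes called higher, and 4 were higher and 1 lower with the block. Lipa, the lysosomal lipase that frees cholesterol from taken-up lipoprotein, rose from 22.5, 27.6 and 26.6 to 84.9, 66.4 and 72.9 CPM (log2 1.55 ± 0.15, adjusted p = 0.00333). Npc2, which carries that cholesterol inside the lysosome, rose by log2 0.96 ± 0.15 (adjusted p = 0.00765). Both were called under all 17 alternatives. The 6 calls became 3 without sham 2 or sham 3 and 3 with the muscle covariate.

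Of 10 genes of oxysterol sensing, efflux and esterification, 4 were higher, 1 lower and 5 not called (median 0.36), beside 20.4% and 12.3% of all genes. The 4 became 3 with the block, 2 with the muscle covariate, without sham 1 or without cut 2, and 1 without sham 2, sham 3 or cut 1. Soat1, which esterifies cholesterol for storage, rose from 17.6, 18.2 and 15.2 to 75.6, 76.9 and 51.3 CPM (log2 1.996 ± 0.19, adjusted p = 0.00333) and was called under all 17 alternatives. Nr1h3, the oxysterol receptor LXRα, fell from 16.0, 15.9 and 17.8 to 8.28, 5.67 and 11.01 CPM (log2 -0.99 ± 0.25, adjusted p = 0.0266), but was called only without cut 2 or cut 3 among the left-out fits (-1.24 to -0.78) and not with the muscle covariate (-0.47). Cyp7b1, an oxysterol hydroxylase, rose by log2 1.10 ± 0.31 from 1.64 ± 0.53 to 3.51 ± 0.805 CPM, a call lost without sham 2, sham 3, cut 1 or cut 2 (0.91 to 1.24) and with the muscle covariate (1.13). The exporter gene Abca1, an LXR target, was not called (0.14 ± 0.24).

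In the branch that uses farnesyl diphosphate outside sterol synthesis, 1 of 11 genes was higher, 1 lower and 9 not called (median -0.06), beside 20.4% and 12.3% of all genes. Nus1, a subunit of the enzyme that begins dolichol, rose by log2 0.59 ± 0.17 (adjusted p = 0.0395), a call lost with the block (0.59, adjusted p = 0.0636), with the muscle covariate (0.33) and in each left-out fit except that without cut 3 (0.47 to 0.69). Pdss1, a subunit of the synthase that makes the side chain of ubiquinone, fell from 7.72, 8.71 and 12.4 to 3.93, 4.02 and 5.64 CPM (log2 -1.08 ± 0.25, adjusted p = 0.0215). Its call was lost without sham 2 (-1.17), sham 3 (-0.89), cut 1 (-0.99) or cut 2 (-1.01) and with the muscle covariate (-0.75). Its partner Pdss2 stood at -1.11 ± 0.36 (adjusted p = 0.0535) and was called lower with the block (-1.23), in DESeq2 (-1.13), in limma-voom (-1.24) and without cut 3 (-1.64), and in 8 of the 17 alternatives in all.

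Markers of several cell types moved with the groups beside these genes. The counts of called markers stand beside 20.4% of all tested genes called higher and 12.3% lower. All 12 macrophage markers were higher, with summed levels of 362 to 480 CPM in sham and 1180 to 1565 CPM in cut tendon. All 12 cell cycle genes were higher, with sums of 28.1 to 34.3 and 108 to 180 CPM. The fibroblast list (7 of 9 higher) summed to 8442 to 16690 CPM in sham and 82020 to 203100 CPM in cut tendon. Myelinating Schwann cells, which make much cholesterol, had 6 of 10 markers lower and none higher, with sums of 730 to 1670 and 562 to 678 CPM. Of 9 tested cartilage markers 8 were higher, the list's sums going from 378 to 1348 CPM in sham to 3169 to 13510 CPM in cut tendon. Of 8 tendon markers 5 were higher (2061 to 4770 and 6401 to 15350 CPM), and of 8 endothelial markers 4 were lower (995 to 1153 and 509 to 791 CPM). The 10 adipocyte markers were all lower, at 1398 to 2228 and 312 to 599 CPM. Of 6 tested erythroid markers 1 was lower, near the share of all genes called lower. Keratinocyte and sebocyte markers summed to only 5.37 to 17.7 CPM in any library, and none of the 7 tested was called in edgeR's test or had an unadjusted p under 0.05. No marker of any of these lists was at 0 in every library. The part of these cell types in the results on the members was not tested.

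Genes with the pattern most like the members were sought by Pearson correlation of log2 CPM over the 6 libraries, a measure that also reflects what the libraries share. For Srebf2 the 5 closest were Zbtb7c, H3f3b, Invs, Ezr and Prim2 (r = 0.9988 to 0.9995), and 1306 tested genes had an r of at least 0.95. For the mean of the 7 enzymes they were Cdkn2d, C1d, Gtf2b, Anapc11 and Dcps (r = 0.982 to 0.995), and 34 genes reached 0.95. None of the members was among the genes compared.

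**Figure D4:**
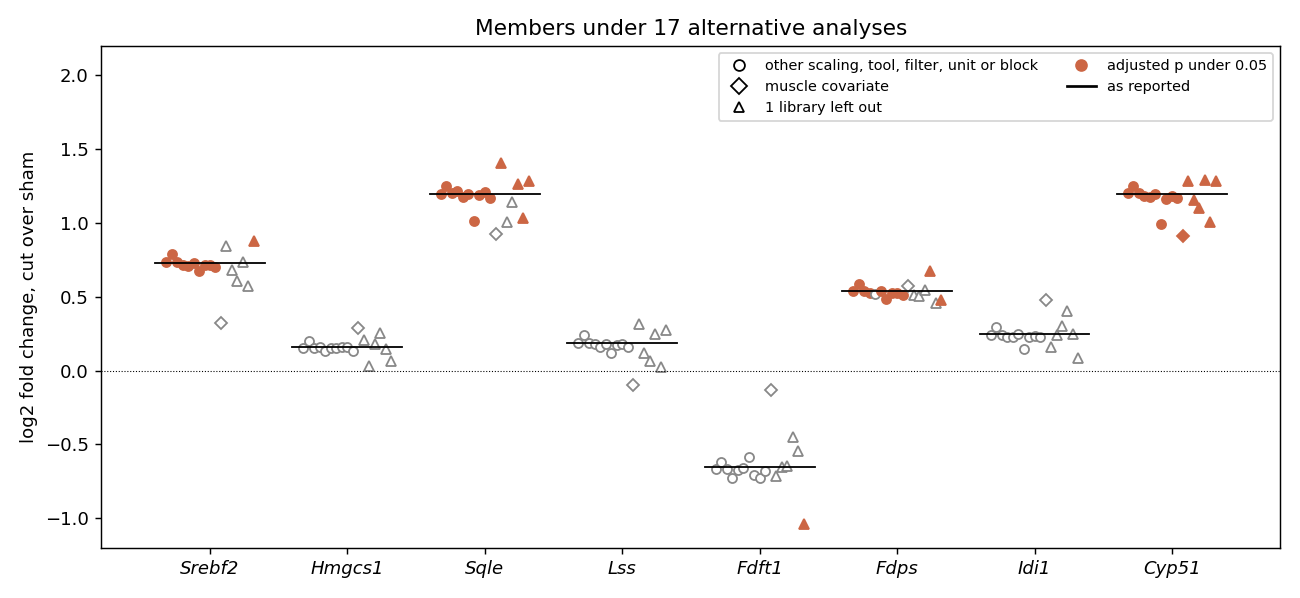
Log2 fold change of each member as reported (black line) and under 17 alternatives, with circles for other scalings, tools, filters, units and the replicate block, diamonds for the muscle covariate and triangles for fits that leave out 1 library. Filled symbols have an adjusted p under 0.05. Cyp51 is filled throughout, and Fdft1 only without cut 3, at -1.04.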

How the data were processed

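Per the labels' protocols, extraction used a mirVana kit and library preparation a strand-marking TruSeq total RNA kit after ribosomal RNA removal. Per the submitters' processing notes, Trimmomatic and HISAT2 were used, without versions, with the build GRCm38.p6. The counting program and its strand setting are not given in the sources used here. The authors deposited raw counts per gene, and FPKM, which the values show to be those counts per gene length and library total (the gene lengths this implies were whole, within 0.01 bases, in 100% of genes checked). Of 21878 genes, 4031 had no count in any library. No 2 libraries agreed within sampling noise (smallest chi-square per gene 15.0).

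Counts were fitted in R 4.3.3 with edgeR 4.0.16 (filterByExpr, 14561 genes kept, TMM, quasi-likelihood test of cut against sham, Benjamini-Hochberg over all tested genes, threshold 0.05). The fit was also run on simulated data, which had less spread between libraries than these data and no library set apart. That run does not bear on the calls given here. CPM are TMM-normalized, and SE is the absolute log2 fold change over the square root of F. Alternatives used DESeq2 1.42.0, limma 3.58.1 (voom, or log2(FPKM + 1) and log2(FPKM + 0.1), which understate changes of low genes), other scalings and filters, a replicate block, the muscle list as a covariate or out of the library sizes, and each library left out. Same-numbered libraries deviated together (r = 0.259, 0.130 and 0.409 for numbers 1 to 3, across genes), although sham 1 with cut 2 reached 0.244. The labels do not say what a number marks, and the block is reported where it changed a call. Named were all members, all other enzymes of the route, and the 3 genes with the smallest p of each further list, with the first in the other direction, and some genes under this rule are not reported here. Scap, Insig1, Srebf1, Abca1, Ctsb, Akap9, Tnmd and Scx were added after their values were seen. The members and lists were chosen with earlier results of these data known. Exon overlaps and similar sequences were searched in GENCODE M21 (GRCm38), and motifs in RefSeq promoters. Python 3.11.15, pandas 2.3.3 and scipy 1.17.1 were used for tables.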

Additional observations from a re-analysis of the deposited data

How the results depend on the processing

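Of 578 values of named genes over 17 alternatives, 481 kept their direction and side of the threshold, 68 lost a call, 23 gained one and 6 changed sign. Those 6 were of genes that were not called: with the muscle covariate Lss (-0.10), Acat2 (-0.18) and Hsd17b7 (-0.078), and Pmvk with upper quartile scaling (0.022), without sham 1 (0.023) and without cut 1 (0.12), its left-out values running from -0.213 to 0.122. The muscle covariate left 1422 genes higher and 580 lower over all tested genes, 1 member higher, and 7 of the other pathway genes higher and 0 lower, against 17 and 3 as reported. DESeq2 called 2738 genes lower against 1789. Of the other pathway genes, 6 were lower in DESeq2, 6 on log2(FPKM + 1) and 5 on log2(FPKM + 0.1). With the replicate block 11 other pathway genes were higher and 5 lower, and among named genes it changed no calls beyond those given for Mvd, Nsdhl, Mbtps2, Nus1, Sc5d and Pdss2. When each library was left out in turn, 1091 to 4212 genes were higher (2968 as reported) and 436 to 4392 lower, 1 to 4 members were higher and 0 to 1 lower, and 6 to 23 other pathway genes were higher and 0 to 11 lower. The highest of these counts came without cut 3. The covariate, the block and the left-out fits leave fewer residual degrees of freedom than the fit as reported. For DESeq2 and the FPKM scale the cause was not tested. Idi1 rests on 92 to 187 counts per library.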
